A study of Mus musculus with 8 samples.

Results

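The Ifi27 family and a set of small interferon-induced proteins were followed in mouse mesenchymal stromal cells in which interferon regulatory factor 7 (Irf7) was targeted by a short hairpin RNA. The set holds 9 genes: Ifi27, Ifi27l2a, Ifi27l2b, Xaf1, Ifi35, Ifi44, Ifi44l, Epsti1 and Lgals3bp. They were found by gene symbol in the annotation of the array, which gave 8 probe sets for 8 genes among 19505 genes in all; no probe set was named Ifi44, and that gene was not analysed here. The set was put together with the differences between shIRF7 and control arrays already known, so these differences are given as a description and are not tested for the members.

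The cells were stromal cells from the inguinal fat pad of male FVB mice 12 months of age. All of them carried the lentiviral backbone pLKO.1, either empty (2 arrays), as a scramble construct (2 arrays) or with shIRF7, the hairpin against Irf7 (4 arrays). The labels do not describe the scramble insert. The labels name a single shRNA and give neither clones nor the origin of the replicates, so the spread between arrays may be technical.

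Type I interferon binds its receptor and sets off a signal through Jak kinases, which switches on a large set of interferon-stimulated genes. Irf7 is itself such a gene and feeds back on interferon production. Members of the Ifi27 family, also called Isg12, are short, hydrophobic proteins of the mitochondrial and nuclear membranes. Xaf1 binds the caspase inhibitor Xiap and favours apoptosis. Ifi35 forms a complex with Nmi, Ifi44 and Ifi44l are cytoplasmic antiviral proteins that bind Fkbp5, Epsti1 was first described as a stromal-epithelial interaction gene, and Lgals3bp is a secreted glycoprotein that binds galectin 3.

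The names of the Ifi27 genes need care, because the RefSeq gene table lists Ifi27 and Isg12 among the older names of Ifi27l2a. In that table the intervals of Ifi27 and Ifi27l2a overlap, and Ifi27l2b lies next to them. No source used here says whether the probe sets keep the 3 genes fully apart.

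Values are log2 intensities from RMA, and a difference of 1 is a doubling. The 5222 negative control probe sets of the array give the background: the 95th percentile of these probe sets ranged from 7.93 to 8.72 over the arrays. Precision is limited by the number of arrays. The labelled cell type was checked with stromal markers, of which 6 of 8 measured exceeded the 95th percentile on every array, while Thy1 exceeded it on 2 and Nt5e on none. Thy1 had the largest difference of the 8 between shIRF7 and both controls, -2.15 (SE 0.72), and 6 of the 8 were lower in shIRF7. The mean of the 8 stromal markers ranged from 13.2 to 13.4 in the controls and from 12.4 to 12.9 in shIRF7, and the part of this gap in the differences of the members was not tested. Of the markers of macrophages and other blood cells, 8 of 8 measured exceeded the 95th percentile on no array, and their mean ranged from 3.83 to 4.04 in controls and from 3.84 to 4.00 in shIRF7. For 5 endothelial markers, none of which exceeded the percentile on any array, the means ranged from 3.45 to 3.94 and from 3.59 to 4.11. For 5 adipocyte markers, of which 4 exceeded it on no array, they ranged from 4.24 to 4.52 and from 4.08 to 4.75. The remaining marker, Fabp4, exceeded the percentile on 4 arrays and differed by -0.99 (SE 0.44) between shIRF7 and both controls.

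Irf7, the target of the hairpin, ranged from 9.55 to 9.76 over the control arrays. Its values were 4.42, 5.66, 6.47 and 6.79 in shIRF7 replicates 1, 2, 3 and 4, all below every control. Irf7 lay above the 95th percentile of negative controls on every control array and on no shIRF7 array, so the order of the shIRF7 values is not read. The difference was -3.79 (SE 0.48), with p = 0.0286 in a two-sided exact permutation test, the smallest p that 4 against 4 arrays allow, and an adjusted p of 0.0692 in limma over all genes. Its size is measured against background: with each shIRF7 value raised to the percentile of its array, Irf7 was at least 2.34-fold lower.

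Promoter sequences are shown because several members lay low together and interferon regulatory factors recognise a short core, AANNGAAA. RefSeq windows of 300 bases (250 before and 50 after the annotated start, build GRCm38.p6) were held for 6 of the 9 genes: Ifi44, Ifi44l, Xaf1, Ifi35, Lgals3bp and Epsti1. The longer core of the interferon-stimulated response element (GAAA, any 2 bases, GAAA), searched on both strands, was in 0 of these 6 windows and in 3.44% of all 32851 windows. The shorter AANNGAAA, also on both strands, which lies within any match to the longer core and was tried after that core gave no match, was in 6 of the 6 windows and in 23.9% of all windows. The 250 bases upstream of Xaf1, Lgals3bp and Epsti1 follow, with AANNGAAA matches on either strand in capitals.
Xaf1, chr11:72301379-72301628, plus strand: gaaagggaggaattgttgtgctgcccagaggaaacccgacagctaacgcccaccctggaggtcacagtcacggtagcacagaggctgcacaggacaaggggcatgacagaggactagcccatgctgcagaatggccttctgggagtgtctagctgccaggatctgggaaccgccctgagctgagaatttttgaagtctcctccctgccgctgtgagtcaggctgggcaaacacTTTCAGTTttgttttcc
Lgals3bp, chr11:118401960-118402209, minus strand: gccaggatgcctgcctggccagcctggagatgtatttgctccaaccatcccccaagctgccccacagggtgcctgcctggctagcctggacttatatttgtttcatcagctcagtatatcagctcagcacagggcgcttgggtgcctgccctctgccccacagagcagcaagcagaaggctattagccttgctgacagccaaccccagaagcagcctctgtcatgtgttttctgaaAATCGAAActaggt
Epsti1, chr14:77903989-77904238, plus strand: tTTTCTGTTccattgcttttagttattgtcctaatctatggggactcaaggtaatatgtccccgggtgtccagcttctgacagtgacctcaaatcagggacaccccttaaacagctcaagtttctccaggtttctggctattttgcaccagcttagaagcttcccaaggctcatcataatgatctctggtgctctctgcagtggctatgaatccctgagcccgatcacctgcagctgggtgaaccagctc

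Counted with the first transcribed base as position 0, the match of Xaf1 begins at position -17 and that of Lgals3bp at position -14, close to the start. A further match in Xaf1 begins at position 11, and the only match of Ifi35 begins at position 14. In Epsti1 the match lies at the far end of the window, at position -249, and those of Ifi44l begin at positions -225 and -192. Ifi44 had 3 matches, at positions -55, -48 and -9. Another motif, TTCNNNGAA, the gamma-activated site, was in 1 of the 6 windows (Ifi35, position 7) and in 8.30% of all windows. These are matches of letters and do not show binding.

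Among the 8 measured members, 7 were lower in shIRF7 than in the mean of both controls and 1 was higher. Of all genes 49.7% were lower. Only 4 of the 8 members exceeded the 95th percentile of negative controls on all arrays. The 7 include Ifi27l2b, which exceeded it on 1 array, and Ifi44l, which exceeded it on none. The median difference over the members was -1.02, and that over all genes was 0.0017. In 3 of 8 members (Ifi27l2a, Xaf1 and Ifi35) every shIRF7 value was under the lowest control, as in 2.80% of all genes, and in 0 of 8 every shIRF7 value was above the highest control, as in 2.58%. Nothing is read from this count, because the members were chosen on this comparison. Over the members the median deviation from the control mean was -1.01, -0.88, -1.15 and -0.49 in shIRF7 replicates 1, 2, 3 and 4. It was -0.13 and 0.37 for the empty vector and -0.39 and 0.22 for scramble. In these bulk samples fewer cells of a type and less RNA per cell cannot be told apart.

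**Figure D1:**
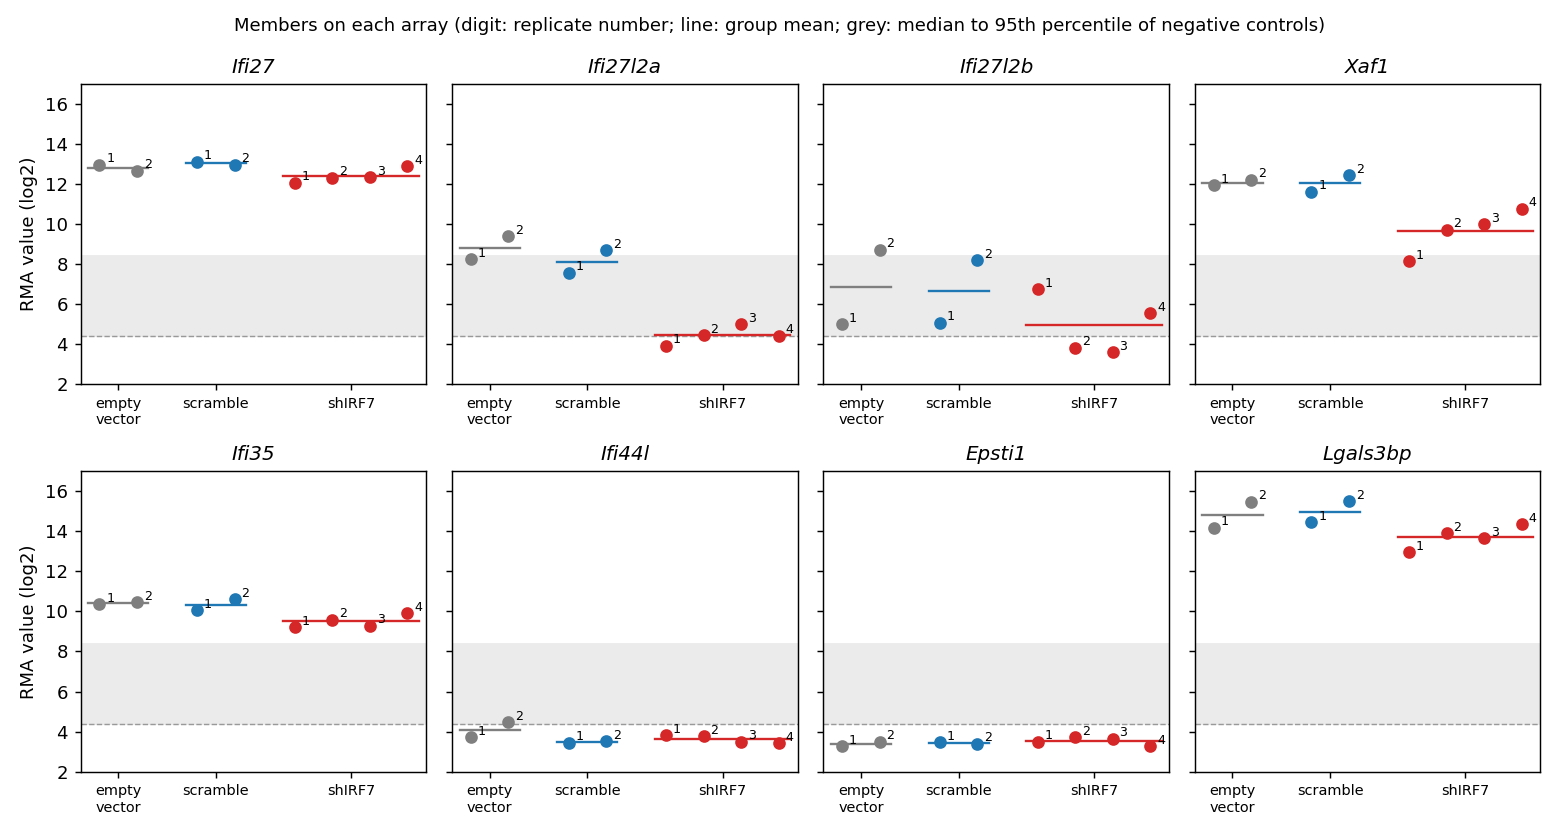
RMA values (log2, vertical axis) of the 8 measured members on each of the 8 arrays, by group, with the replicate number beside each point, the group mean as a line, and the span from the median to the 95th percentile of the negative controls (mean over arrays) in grey. Ifi27l2a lies in or under that span on the shIRF7 arrays, with empty vector replicate 1 and scramble replicate 1 inside it as well, Ifi44l and Epsti1 lie in or under it on every array, and Ifi27l2b differs by replicate number within both controls.

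Ifi27l2a had the largest difference of the members. Its empty vector values were 8.24 and 9.38, its scramble values 7.57 and 8.68 and its shIRF7 values 3.93, 4.46, 5.0 and 4.43. The groups did not overlap, and the lowest control lay 2.57 above the highest shIRF7 array. The control mean was 8.47 ± 0.76 and the shIRF7 mean 4.46 ± 0.44 (SD, n = 4 each), a difference of -4.01 (SE 0.37) or 16.1-fold. In shIRF7 between 43.1% and 60.0% of the negative controls lay below its value, against 93.0% to 96.8% in the controls. It exceeded the 95th percentile on 3 of 4 control arrays, all but scramble replicate 1, and on 0 of 4 shIRF7 arrays. A still lower level could therefore not be told from background. With each shIRF7 value raised to the percentile of its array, Ifi27l2a was at least 1.05-fold lower. Only 2 of 19505 genes had a difference further below 0.

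Ifi27l2a was also the only 1 of the 8 members past the limma threshold (adjusted p under 0.05) against both controls, where 0.0308% of all genes passed (6 of 19505, all lower). The rule used this comparison, so the count is a description. Without shIRF7 replicate 2 or 3 the count was 0, and 0 of 19505 genes passed. Without shIRF7 replicate 4 it was 0, with 3 genes passing, and without shIRF7 replicate 1 it was 1, with 28 genes passing. Leaving out a control array leaves 1 array in its group, so no count is read there. Over the 8 fits that each leave out 1 array, the difference of Ifi27l2a stayed between -4.30 and -3.73. With the filter on dim genes, which keeps genes whose mean exceeds the 95th percentile of the negative controls, Ifi27l2a was left out.

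Ifi27 had empty vector values of 12.9 and 12.7, scramble values of 13.1 and 12.9 and shIRF7 values of 12.1, 12.3, 12.3 and 12.9. In 3 of 4 shIRF7 arrays it lay below every control, and shIRF7 replicate 4 lay among them. The means were 12.9 ± 0.19 and 12.4 ± 0.35 (SD, n = 4 each), a difference of -0.51 (SE 0.20) or 1.43-fold. Its probe set stayed above the 95th percentile of the negative controls on all 8 arrays.

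The values of Ifi27l2b split by the replicate number within both controls. Only empty vector replicate 2 lay above the 95th percentile of negative controls, so the other 7 values are within background and its differences are no measure of a change in expression. Its empty vector values were 5.0 and 8.71 and its scramble values 5.08 and 8.21, so the arrays numbered 2 were higher in both controls, by 3.71 and 3.13. In shIRF7 it measured 6.75, 3.82, 3.61 and 5.56, with replicate 1 above replicate 2. The control mean was 6.75 ± 1.98 and the shIRF7 mean 4.94 ± 1.49 (SD, n = 4 each), a difference of -1.81 (SE 1.10) that is no larger than the SD among the controls. Between arrays of the same number the direction turned: shIRF7 lay 1.71 above the controls among the arrays numbered 1 and differed by -4.64 among those numbered 2. The labels do not say that a number pairs shIRF7 with the controls. Over all genes the change from number 1 to 2 in shIRF7 correlated at -0.29 and -0.21 with that in the controls. Without empty vector replicate 2 the difference was -0.89, and without scramble replicate 2 it was -1.03. It was -2.74 without empty vector replicate 1.

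**Figure D2:**
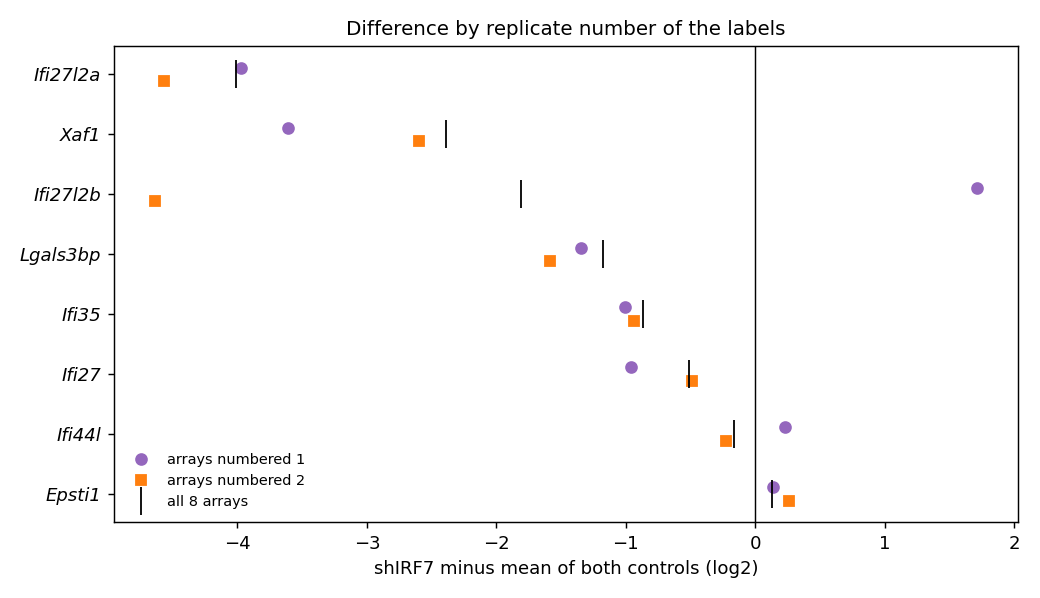
Difference of shIRF7 from the mean of both controls (log2, horizontal axis) for each member, taken among the 3 arrays numbered 1 (circles), among the 3 numbered 2 (squares) and over all 8 arrays (ticks). Ifi27l2b lies at 1.71 and -4.64, on opposite sides of 0, whereas Ifi27l2a, Xaf1, Lgals3bp, Ifi35 and Ifi27 are below 0 in both. The numbers were not taken to pair shIRF7 with the controls.

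The replicate numbers were looked at because the negative control medians went with numbers 1 and 2. These medians were 4.21, 4.26 and 4.18 on the arrays numbered 1 and 4.55, 4.56 and 4.56 on those numbered 2. On shIRF7 replicates 3 and 4, which have no control of the same number, they were 4.54 and 4.33. Of the 8 members, 6 were higher on number 2 than on number 1 in both controls. Within number 1 the members had a median difference of -0.98, with 5 lower and 3 higher, and within number 2 of -1.26, with 7 lower and 1 higher. Ifi27l2a differed by -3.97 and -4.57, Xaf1 by -3.61 and -2.60, and Lgals3bp by -1.35 and -1.58. Ifi35 differed by -1.01 and -0.93, and Ifi27 by -0.96 and -0.49. The numbers were not taken to pair shIRF7 with the controls, and the part of the replicate number in these differences was not tested.

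Xaf1, the partner of Xiap, had empty vector values of 11.9 and 12.2, scramble values of 11.6 and 12.4 and shIRF7 values of 8.16, 9.72, 9.98 and 10.8. The groups did not overlap, with a gap of 0.84 between the lowest control and the highest shIRF7 array. The means were 12.0 ± 0.36 and 9.66 ± 1.09 (SD, n = 4 each), a difference of -2.39 (SE 0.52) or 5.22-fold. Xaf1 spread over 2.61 among the shIRF7 arrays and over 0.83 among the controls. It was lowest in shIRF7 replicate 1 and highest in replicate 4, and it stayed above the 95th percentile of the negative controls on all 8 arrays.

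Ifi35, the partner of Nmi, had empty vector values of 10.4 and 10.4, scramble values of 10.1 and 10.6 and shIRF7 values of 9.20, 9.59, 9.29 and 9.92. The groups did not overlap, but the gap was only 0.13. The means were 10.4 ± 0.23 and 9.50 ± 0.33 (SD, n = 4 each), a difference of -0.87 (SE 0.21) or 1.82-fold.

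Lgals3bp, the galectin 3 binding protein, had empty vector values of 14.2 and 15.5, scramble values of 14.4 and 15.5 and shIRF7 values of 13.0, 13.9, 13.7 and 14.3. The groups overlapped by 1 array, since shIRF7 replicate 4 lay above empty vector replicate 1. The means were 14.9 ± 0.69 and 13.7 ± 0.58 (SD, n = 4 each), a difference of -1.18 (SE 0.41) or 2.26-fold. In both controls the array numbered 2 was the higher, by 1.31 in the empty vector and 1.06 in the scramble cells, and in shIRF7 replicate 2 lay 0.95 above replicate 1.

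Ifi44l and Epsti1 were at background on every array. Ifi44l had empty vector values of 3.74 and 4.47, scramble values of 3.46 and 3.53 and shIRF7 values of 3.83, 3.77, 3.50 and 3.44. Its difference was -0.17 (SE 0.20), and between 24.1% and 48.4% of the negative controls lay below its values. Epsti1 measured 3.28 and 3.51, then 3.47 and 3.40, and 3.51, 3.71, 3.65 and 3.28 in the same groups. Its difference was 0.13 (SE 0.15), with 22% to 30.4% of the negative controls below. A change of either gene below this background would not be seen.

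The 4 members above the 95th percentile on all arrays, Ifi27, Xaf1, Ifi35 and Lgals3bp, were each lowest in shIRF7 replicate 1 and highest in shIRF7 replicate 4 among the shIRF7 arrays. The other 4 exceeded it on no shIRF7 array, and their order there is not read; as measured, Ifi27l2a was also lowest in replicate 1, while Ifi27l2b and Ifi44l were highest there. Over all 8 arrays the Pearson correlation across arrays was 0.95 between Xaf1 and Ifi35, 0.90 between Xaf1 and Ifi27l2a and 0.90 between Xaf1 and Lgals3bp. It was 0.57 between Ifi27l2a and Ifi27l2b and 0.18 between Ifi27 and Ifi27l2b. These are descriptions over 8 arrays that share the groups.

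Against each control alone Ifi27l2a, Xaf1, Ifi27l2b, Lgals3bp, Ifi35 and Ifi27 were lower in shIRF7. Both comparisons use the same shIRF7 arrays, and they are given side by side. In limma 0 of 8 members passed against scramble (0.00513% of all genes passed, 1 of 19505, and 6.14% at an unadjusted p under 0.05) and 0 of 8 against empty vector (0% and 5.84%). The adjusted p of Ifi27l2a in limma was 0.224 against scramble and 0.103 against empty vector. The rule used both comparisons, so these counts and p-values are descriptions and no test of the members. Against scramble, Ifi27l2a differed by -3.67 (SE 0.45), Xaf1 by -2.37 (SE 0.64) and Lgals3bp by -1.25 (SE 0.51). Against empty vector they differed by -4.35 (SE 0.45), -2.41 (SE 0.64) and -1.10 (SE 0.51). Ifi35 differed by -0.82 and -0.91 (SE 0.26 each), and Ifi27 by -0.63 and -0.40 (SE 0.25 each). Ifi27l2b differed by -1.71 and -1.92 (SE 1.35 each), Ifi44l by 0.14 and -0.47 (SE 0.24 each) and Epsti1 by 0.11 and 0.15 (SE 0.18 each). The median over the members was -1.04 against scramble and -1.0 against empty vector. It moved to -0.63 against scramble without scramble replicate 2, and to -0.50 against empty vector without empty vector replicate 2.

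**Figure D3:**
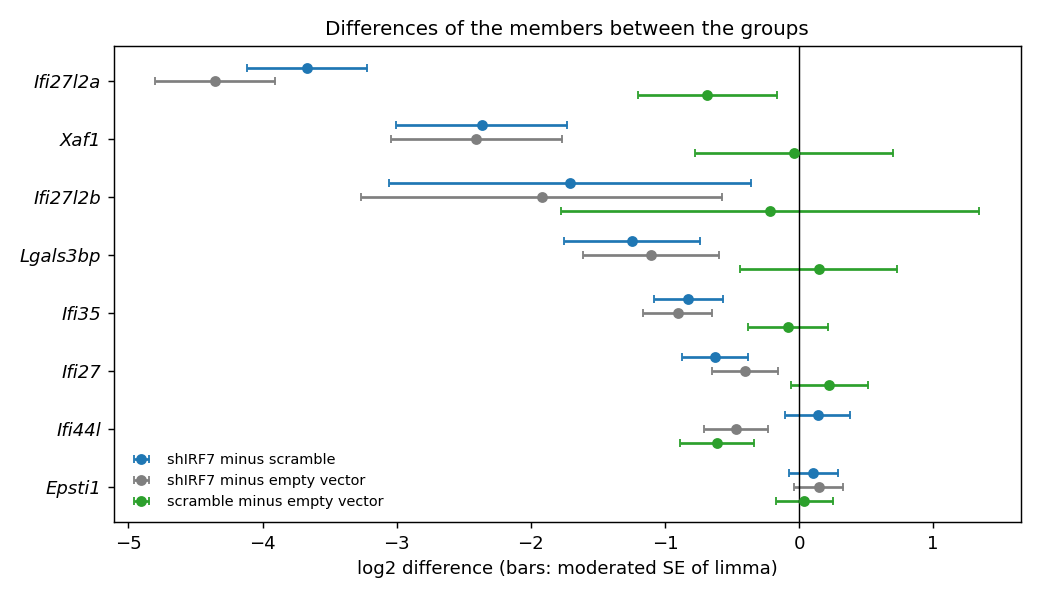
Log2 differences (horizontal axis) of each member between shIRF7 and scramble, shIRF7 and empty vector, and scramble and empty vector, with the moderated SE of limma as bars. Ifi27l2a lies at -3.67 and -4.35 against the controls and at -0.68 between them, and the difference between the controls for Ifi44l is as large as any it shows.

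The comparison of the controls with each other was not used in choosing the members and was tested. In limma 0 of 8 members passed in scramble against empty vector, as did 0% of all genes (0 of 19505). At an unadjusted p under 0.05 there were 0 of 8 members and 1.93% of all genes (376). Ifi27l2a differed by -0.68 (95% interval -1.88 to 0.52) and Ifi44l by -0.61 (-1.25 to 0.033). Both moved when 1 array was left out: without empty vector replicate 1 they differed by -1.26 and -0.98, and without empty vector replicate 2 by -0.11 and -0.24. Leaving out 1 control array leaves the replicate numbers unbalanced between the controls, and the fit took no account of the number. On the arrays numbered 1 Ifi27l2a measured 8.24 (empty vector) and 7.57 (scramble), and on those numbered 2 it measured 9.38 and 8.68. For both genes scramble lay below empty vector within each number. Xaf1 differed by -0.04 (-1.75 to 1.67), Ifi35 by -0.081 (-0.77 to 0.61), Lgals3bp by 0.15 (-1.21 to 1.51) and Ifi27 by 0.23 (-0.44 to 0.89). For Ifi27l2b the interval ran from -3.83 to 3.40, so this fit, which took no account of the number, hardly bounded its difference. The difference was -2.07 without empty vector replicate 1 and 1.64 without empty vector replicate 2. On the arrays numbered 1 Ifi27l2b measured 5.0 (empty vector) and 5.08 (scramble), and on those numbered 2 it measured 8.71 and 8.21. Of these values only 8.71 lay above the 95th percentile of negative controls. Epsti1 differed by 0.04 (-0.45 to 0.53). The adjusted p-value in limma was 0.9999 for each of the 8 members.

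The genes next to the members on the chromosome were set beside them. The nearest measured, named neighbours on either side were 12 genes. Of these, 0 passed in limma (0.0308% of all genes) and 0 lay wholly below or above the controls (2.80% and 2.58% of all genes). The counts are near those shares, and nothing is read from them. The differences of the neighbours ran from -0.52 to 0.56 with a median of -0.20. The RNA helicase gene Ddx24, on one side of the Ifi27 cluster, had a control mean of 13.5 ± 0.44 and a shIRF7 mean of 12.9 ± 0.24 (SD, n = 4 each). On the other side Ppp4r4, a phosphatase regulatory subunit gene, was at background, at 4.61 ± 0.25 and 4.21 ± 0.33. Rpl27 and Vat1, which flank Ifi35, differed by 0.16 and -0.081, and Timp2 and Cant1, which flank Lgals3bp, by -0.32 and 0.063. Slc13a5 and Fbxo39, which flank Xaf1, were at background and differed by 0.45 and -0.27. Dnajc15 and Fam216b, beside Epsti1, differed by -0.21 and -0.19. Of the genes beside Ifi44 and Ifi44l, Adgrl4 was at background and differed by -0.22, and the prostaglandin receptor gene Ptgfr differed by 0.56 (SE 1.07).

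Known protein partners of the members, a list of 14 measured genes, had a median difference of -0.028, and 0 passed in limma in either direction (0.0308% of all genes passed). In 1 of them, the RNA sensor Ddx58, every shIRF7 value was under the lowest control (difference -0.96, SE 0.21), and 1 of 14 lay above, against 2.80% and 2.58% of all genes. Nmi, the partner of Ifi35, was at background and differed by -0.25 (SE 0.15). Xiap, the target of Xaf1, had a control mean of 11.2 ± 0.16 and a shIRF7 mean of 11.4 ± 0.18 (SD, n = 4 each). Lgals3, the ligand of Lgals3bp, differed by -0.027 (SE 0.42). These 3 were picked as direct partners after their values were seen. Nr4a1, a nuclear receptor bound by human IFI27, and Skp2, a ubiquitin ligase subunit, had the largest other differences, -1.51 (SE 1.76) and 0.56 (SE 0.85). Nr4a1 had empty vector values of 11.6 and 5.46 and scramble values of 10.9 and 5.31, again split by replicate number.

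In the interferon signalling pathway 13 of 14 listed genes were measured, with a median difference of -0.22. In limma 0 passed in either direction, while 5 of 13 lay below all controls and 0 above (2.80% and 2.58% of all genes). Of the 13, 2 lay above the 95th percentile of negative controls on no array. The largest differences were those of Irf7, of Usp18, the protease that removes Isg15 from proteins and damps the receptor (-3.66, SE 0.61), and of Isg15, the ubiquitin-like modifier (-2.68, SE 0.48), which exceeded the percentile on 1 array. Of 33 other interferon-stimulated genes measured, 2 fell in limma over all genes and 0 rose (0.0308% and 0% of all genes), 20 lay below all controls and 0 above (2.80% and 2.58%), and the median was -1.47. On no array did 11 of the 33 exceed the percentile, so their values are at background throughout. The 2 were Bst2 (-2.89, SE 0.30) and Adar (-1.63, SE 0.17), each with an adjusted p of 0.0483 in limma. Bst2 exceeded the percentile on 4 arrays and Adar on 8. The shIRF7 values of Bst2, 6.76, 6.67, 6.52 and 7.84, lay under the percentile, so its difference is measured against background. Without shIRF7 replicate 2 or 3, 0 of 19505 genes passed. The list was written with earlier results of these arrays known.

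**Figure D4:**
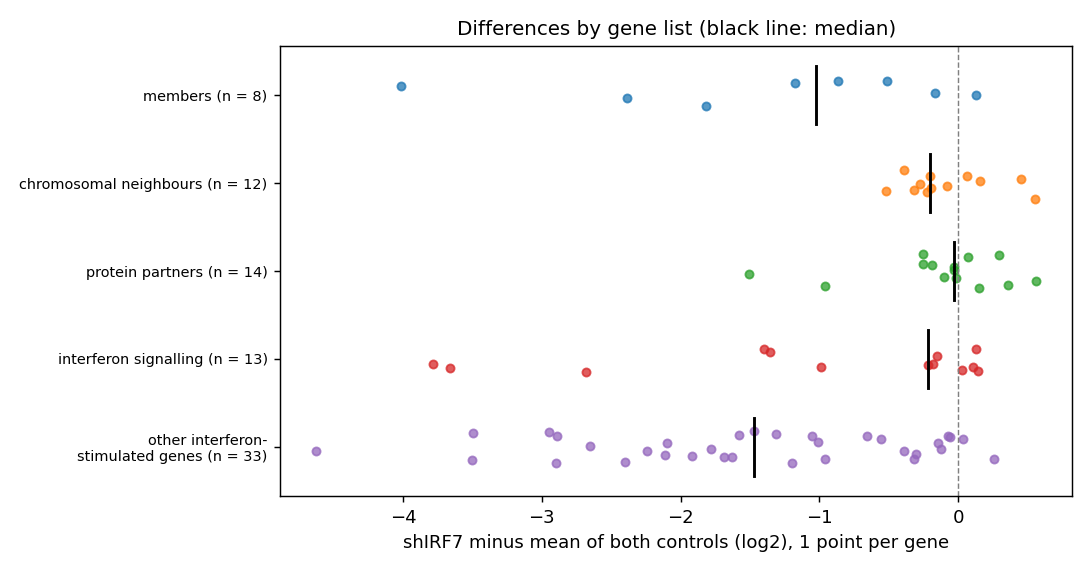
Difference of shIRF7 from the mean of both controls (log2, horizontal axis), 1 point per gene, for the 8 members, their 12 chromosomal neighbours, 14 protein partners, 13 interferon signalling genes and 33 other interferon-stimulated genes, with the median as a black line. The medians are -1.02, -0.20, -0.028, -0.22 and -1.47, and the neighbours lie between -0.52 and 0.56.

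The genes whose pattern over the 8 arrays was most like that of the members were sought among 3845 named genes with an SD of at least 0.5. For the mean profile of the members these were Oas1a (Pearson r 0.995), Isg15 (0.973), Oas1g (0.972), Trim30a (0.972) and Oas1b (0.967), and Irf7 had an r of 0.897. Most of these were not clearly above background: Oas1a, Oas1g and Oas1b lay above the 95th percentile of negative controls on 0 of 8 arrays, Isg15 on 1 and Trim30a on 3. The mean profile was taken without scaling, so members that vary more weigh more. Ifi27l2a ran from 3.93 to 9.38 and Ifi27l2b from 3.61 to 8.71, and both exceeded the percentile on 0 shIRF7 arrays. The profile is therefore no pattern shared by all 8 members. The Oas1 genes encode oligoadenylate synthetases and their near-identical copies may share probes. For Ifi27l2a alone they were Ero1a (0.979), Trim30a (0.977), Adar (0.975), Ube2z (0.975) and Ttc19 (0.97). Ero1a, Adar and Ube2z exceeded the percentile on all 8 arrays and Ttc19 on 4. Ero1a, an oxidase of the endoplasmic reticulum, differed by -1.22, Ube2z, a ubiquitin-conjugating enzyme, by -1.12, and Ttc19, a mitochondrial protein, by -1.54. All r values are over 8 arrays and are given as a description.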

How the data were processed

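RMA values on the log2 scale were deposited by the authors, 1 per probe set and array; the submitters' processing notes name RMA and Affymetrix Expression Console 1.4.1.46. That the scale is log2 was judged from the values, which run from 1.66 to 18.9. No source used here gives the genome build of the probe sets. Of 28846 probe sets 19572 had a gene symbol. For genes with several, the brightest was kept, which left 19505 genes, and symbols were updated through a RefSeq gene table of GRCm38.p6. No array column was left unused (0).

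A mean per group was fitted to all 8 arrays with limma 3.58.1 in R 4.3.3 (lmFit, eBayes, 5 residual degrees of freedom), with Benjamini-Hochberg adjustment over all genes and a threshold of 0.05. The fit was tested on simulated data. The equally weighted mean of both control groups served as control. Adjusted p-values are from limma. An SE is its moderated standard error.

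Members and lists were chosen with earlier results of these data known. Genes named were the members, Irf7, the genes of each list that passed or otherwise up to 3 with the largest difference, the nearest named neighbours, and the 5 genes most alike in pattern. Riken, predicted and small RNA genes were left out of the last 2 kinds. Alternatives were a filter on dim genes, trended robust moderation, cyclic loess, both controls as 1 group, the mean of probe sets, a block for the replicate number and leaving out each array.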

Additional observations from a re-analysis of the deposited data

How the results depend on the processing

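Of 208 alternative values of single members, 199 stayed on their side of the threshold and within the spread between arrays, 7 ended the call of Ifi27l2a, 2 moved further (Ifi44l between the controls) and 0 reversed a called value. Many of the 208 could not move. Each measured member has 1 probe set, and leaving out a shIRF7 array cannot change a difference between controls. Reversal was counted for called values only. Signs did turn for uncalled values between controls, where leaving out 1 control array leaves the replicate numbers unbalanced. Ifi27l2b ran from -2.07 to 1.64, Lgals3bp from -0.51 to 0.80 and Xaf1 from -0.45 to 0.37. Ifi35 ran from -0.36 to 0.19 and Epsti1 from -0.072 to 0.15. Ifi44l in shIRF7 against both controls ran from -0.35 to 0.017. The number of members called in shIRF7 against both controls was 0 with the filter on dim genes and 0 with the replicate block, and 0 to 1 when single arrays were left out. Genes called numbered 3 with that filter, 3 with trended robust moderation, 2 with cyclic loess, 28 with both controls as 1 group, and 0 to 28 with single arrays left out. With the replicate number as a block 0 genes were called. Ifi27l2a then differed by -4.27 (adjusted p = 0.212 in limma, given as a description) and Irf7 by -4.58. Irf7 passed with both controls as 1 group (-3.79, adjusted p = 0.0299 in limma) and without shIRF7 replicate 1 (-3.31, adjusted p = 0.0254 in limma), and ranged from -4.10 to -3.31 without single arrays. Without single arrays the median over the members ranged from -1.44 to -0.63 against scramble and from -1.35 to -0.50 against empty vector. In the same fits 3 to 5 members lay below every control. With fewer arrays the groups separate more easily for any gene. The share of all genes was not computed for these fits, so nothing is read from that range. The change of arrays numbered 2 against 1 correlated over genes at 0.758 between the controls, but at -0.29 and -0.21 between shIRF7 and each control. By this measure the controls of a number changed together and shIRF7 did not. The negative control medians, however, went with numbers 1 and 2 in all 3 groups. The numbers were not taken to pair all 3 groups, and whether they do was not tested. With the block 2 residual degrees of freedom remain. The filter kept 4 of the 8 members. The causes of these changes were not tested.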

Other observations

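The genes whose pattern was most like that of Ifi27l2b were sought by the same measure, after its values were seen. They were Dnaaf2 (Pearson r 0.991 over 8 arrays), Gprc5a (0.986), Aimp2 (0.982), Ttll4 (0.981) and Gsr (0.979), while Irf7 had an r of 0.406. Dnaaf2 and Ttll4 lay above the 95th percentile of negative controls on 0 of 8 arrays, Gprc5a on 1, and Aimp2 and Gsr on 8. Dnaaf2 is an assembly factor of axonemal dynein, Aimp2 a scaffold of the aminoacyl-tRNA synthetase complex, Ttll4 a tubulin ligase, and Gsr glutathione reductase. None of the 5 is among the interferon genes listed. Their differences between shIRF7 and both controls lay between -1.08 and -0.60.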
